A study of Saccharomyces cerevisiae with 30 samples.

Results

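The comparison described here is of total RNA from cells early in meiosis, *ime4-cat*/*ime4-cat* against *IME4*/*IME4*, in which 7126 genes were listed for each library. It rests on 6 libraries, 3 of each strain, out of the 18 RNA-seq libraries and 30 samples of the series. The libraries were chosen by the strain number and the fraction letter in the names of their count tables. GBy225-t denotes total RNA of strain GBy225, and GBy222-t denotes total RNA of strain GBy222. Both are *MAT*a/*MAT*α diploids of the SK288C background, which is S288C with the *RME1*, *TAO3* and *MKT1* alleles of SK1, a strain that sporulates well. Of these variants both strains carry those of *TAO3* and *MKT1*, but not that of *RME1*, the largest contributor to meiotic efficiency in the paper. Both are also homozygous for *his3Δ1*, *leu2Δ0*, *lys2Δ0* and *ura3Δ0* and carry the *RME1* allele of S288C. GBy225 differs in being homozygous for *ime4-cat*, a pair of amino acid substitutions that removes the methyltransferase activity of Ime4p but leaves the gene in place. Cells were harvested after 5 h in SPO media, the starvation medium that induces sporulation, and poly(A) RNA was taken from the lysate before any polysome gradient. Each genotype is represented by 1 strain, so a difference between the genotypes cannot be told apart from any other difference between these strains.

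The sample titles give these libraries other names. The GBy225-t libraries are titled as WT input, and the GBy222-t libraries as *rme1-10* polysome, the polysomal RNA of another strain. The members of the sets of 3 are the same under either reading, and only their names differ. Every direction below therefore rests on the strain number and not on the title. *IME4* itself checks nothing here, because the catalytic allele is still transcribed. The *RME1* values that the study lists for total RNA of these genotypes stood in one nearly constant ratio to those computed here, library by library, when the libraries were read by strain number. As a second check, each library was set beside the mean profiles of the other sets by Spearman's correlation across 4486 genes. The polysomal sets of GBy225 and GBy222 have titles that match their strain number and letter, while for GBy557, another strain of the series with the catalytic activity of Ime4p intact, polysomal RNA (GBy557-p) is titled as *rme1-10* input and total RNA (GBy557-t) as *ime4-cat* input. Libraries GBy225-t 1 and 2 had rho of 0.92 and 0.945 with polysomal GBy225 and of 0.856 and 0.871 with polysomal GBy222. With the rest of their own set they had 0.913 and 0.948, so the check does not tell total from polysomal RNA for them. Library GBy225-t 3 had 0.854 with polysomal GBy225 and 0.847 with polysomal GBy222, and it was nearer to GBy557-t (0.887), GBy222-t (0.883), the rest of its own set (0.87) and GBy557-p (0.867), so that the check does not place it. The GBy222-t libraries had 0.842 to 0.869 with polysomal GBy225 and 0.91 to 0.933 with polysomal GBy222, but also 0.918 to 0.945 with GBy557-p and 0.964 to 0.98 with GBy557-t. Each of them was nearer to GBy557-t than to the rest of its own set (0.952 to 0.978), a mean over fewer libraries. The GBy222-t libraries were thus farther from polysomal GBy225 than from the polysomal sets of GBy222 and GBy557. The check does not tell GBy222 from GBy557. Genes are not independent replicates, and these correlations are descriptions.

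In budding yeast, starvation of a diploid turns on *IME1*, which encodes the activator of the early meiotic genes, and Ime1p acts with Ume6p at the URS1 element of their promoters. Rme1p, a zinc finger repressor best known from haploid cells, blocks the transcription of *IME1*. Ime4p is the catalytic subunit of the complex that converts adenosine in mRNA to N6-methyladenosine (m6A), which it does mainly during meiosis, and Pho92p is a protein that binds the modified base.

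The 6 libraries held 650668 to 2296555 counts on genes, and the shallowest was GBy222-t replicate 1. Of all entries, 66.8% to 88.1% were non-unique alignments, and reads on no feature were 1.25 to 1.36 times those on genes. Early meiotic markers were detected in all 6 libraries. The summed level of 8 early meiotic genes was 1598 to 3448 CPM (each count divided by the TMM-adjusted size of its library) in GBy225-t and 4887 to 5284 CPM in GBy222-t, whereas that of 3 middle sporulation genes was 38.4 to 52.8 CPM in GBy225-t and 60.05 to 75.9 CPM in GBy222-t.

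One library stood apart. GBy225-t replicate 3 was separated from the other 5 along the second principal component, with a score of -28.4 against 1.56 to 11.1 for the others. Of 4499 genes with a mean of at least 50 normalized counts, 8.6% differed by more than 1 on the log2 scale from the mean of the other GBy225-t libraries, 152 above it and 235 below. The same share was 3.00% and 1.36% for GBy225-t replicates 1 and 2, and 0 to 0.60% for the GBy222-t libraries. Replicate 3 also had the fewest genes with any count, 5967 against 6284 to 6424 in the others. It bore on most results, so the count without it is given for each group of genes. Leaving out any other library gave fewer calls, as described below.

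*RME1* (YGR044C, chromosome VII, 582990 to 583892, minus strand of R64) was higher in GBy225-t. Its level was 180, 208 and 237 CPM in GBy225-t replicates 1, 2 and 3, against 108, 109 and 88.2 CPM in GBy222-t. The raw counts behind these were 395, 325 and 384 in GBy225-t and 74, 194 and 145 in GBy222-t. The lowest GBy225-t library was above the highest GBy222-t library. The fold change was 2.05, or 1.04 ± 0.17 on the log2 scale (SE, n = 3 each), with an adjusted p of 0.035 in edgeR's quasi-likelihood test over 5880 genes. An exact two-sided permutation test of the CPM values alone gave p = 0.1, the smallest that 3 libraries against 3 can give. The log2 fold change was 0.94 without GBy225-t replicate 3 (edgeR adjusted p = 0.0022). It was 1.08, 1.10 and 0.94 without GBy222-t replicate 1, 2 or 3, where the adjusted p of the same test was 0.14, 0.18 and 0.24. Without GBy225-t replicate 2 it was 1.04, with an adjusted p of 0.11.

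Of the 4499 well-counted genes, 42 had a larger log2 fold change than *RME1*, so its rise was large but not alone. Replicate 3 was the GBy225-t library farthest from GBy222-t for *RME1*, whereas for most of the meiotic genes described below it was the nearest. The window below shows the stretch of the *RME1* 3′ UTR that holds the only GGAC or AGAC, the core letters of the m6A motif, in the 200 bases after the stop codon. The A of the core is base 129 after the stop codon (counted from 1), at chrVII:582851-582872 of R64, minus strand, and the table of strains lists no change there for GBy225 or GBy222. The capitals mark the core.
RME1 3′ UTR: tgcaactatGGACacttgctat

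**Figure D1:**
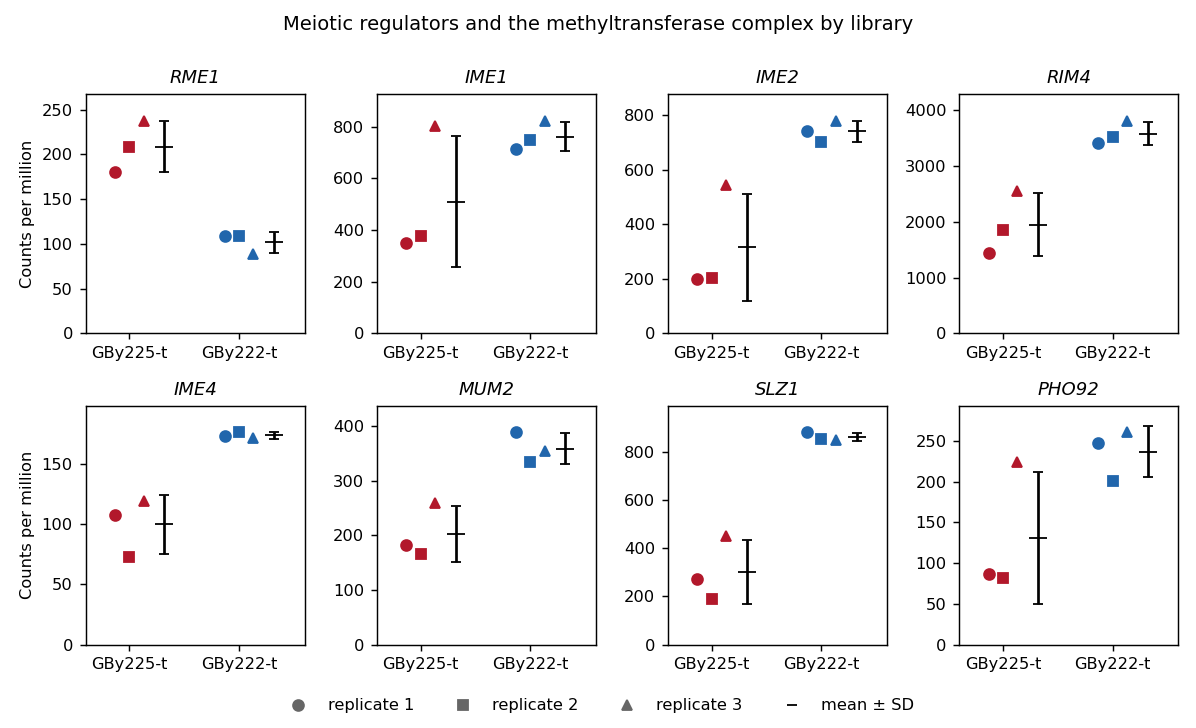
TMM-normalized CPM (linear axis from 0) in the 3 GBy225-t libraries (red, left) and the 3 GBy222-t libraries (blue, right) for 8 genes; marker shapes give the replicate number and black bars the mean ± SD. *RME1* was 180 to 237 CPM in GBy225-t and 88.2 to 109 CPM in GBy222-t, while GBy225-t replicate 3 (triangle) lay nearest to GBy222-t for the 7 other genes.

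Beyond *RME1*, mRNAs of meiotic recombination, DNA replication and histones were among those that fell, and mRNAs for ribosomal proteins and for amino acid and sulfur metabolism were among those that rose. At an adjusted p under 0.05 (edgeR), 66 of 5880 genes were higher in GBy225-t (1.12%) and 59 were lower (1.00%). In all 125 (2.13%) the libraries of the sets did not overlap, compared with 753 genes (12.8%) above and 859 genes (14.6%) below over all genes tested. The median log2 fold change over all genes was 0.00. At an unadjusted p under 0.05 edgeR had 1217 of the 5880 genes, to be set beside the list counts at that limit below.

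The number of calls depended strongly on single libraries. Without GBy225-t replicate 3, 584 genes were higher (9.84% of 5932) and 556 were lower (9.37%), and these included all 125. Without GBy222-t replicate 1, 2 or 3 or GBy225-t replicate 2, edgeR called 0 genes, with 955, 783, 701 and 986 genes at an unadjusted p under 0.05. Without GBy225-t replicate 1 it called 13 higher and 15 lower. Of the 107 named genes other than *RME1*, 66 no longer passed in each fit that called 0 genes, and 53 without GBy225-t replicate 1. The list counts below are likewise 0 in the fits that called 0 genes. Of the fits with 1 library left out, only that without GBy225-t replicate 3 gave more calls than all 6 libraries. Libraries with the same replicate number deviated together across the sets, though the labels do not say what a number stands for. A fit blocked on that number, a pairing inferred from these same counts, called 192 higher (3.27%) and 169 lower (2.87%), again including all 125. Among genes called without replicate 3, that library lay on the same side of GBy222-t as replicates 1 and 2 for 419 of 544 well-counted genes that were higher and for 391 of 482 that were lower. Its median position was 43.2% of the way from GBy222-t to the other GBy225-t libraries for the first and 37.9% for the second.

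**Figure D2:**
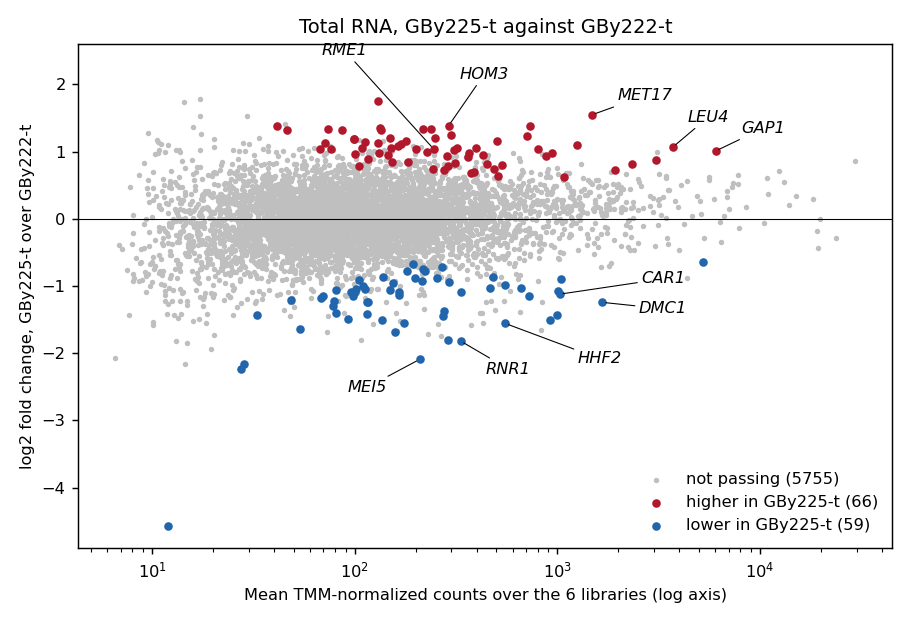
log2 fold change of GBy225-t over GBy222-t (linear axis) against mean TMM-normalized counts (log axis) for the 5880 genes tested, 1 point a gene. The 66 genes that were higher are red, the 59 that were lower are blue, and 10 genes named in the text are labelled.

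Of 17 regulators tested, *RME1* was higher and none was lower, with a median log2 fold change of 0.01. *IME1* had 351, 377 and 803 CPM in GBy225-t, against 715, 747 and 823 CPM in GBy222-t. GBy225-t replicates 1 and 2 were well below every GBy222-t library, but replicate 3 lay inside the GBy222-t range, so that the sets overlapped. Its log2 fold change was -0.58 ± 0.29 (SE), with an edgeR adjusted p of 0.29, and without replicate 3 the adjusted p was 3.8e-04.

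*IME2*, which encodes the kinase that Ime1p turns on and that drives premeiotic S phase, had 200, 202 and 543 CPM in GBy225-t, against 741, 703 and 780 CPM in GBy222-t. The sets did not overlap, yet the spread in GBy225-t was wide (log2 fold change -1.24 ± 0.35, edgeR adjusted p = 0.090). With the replicate block the adjusted p was 0.028, and without replicate 3 it was 1.5e-05. *RIM4*, which encodes an RNA-binding protein of meiosis, had 1446, 1844 and 2558 CPM in GBy225-t, against 3407, 3519 and 3809 CPM in GBy222-t (log2 fold change -0.88, edgeR adjusted p = 0.056, and 0.021 with the block). *HST1*, which encodes a deacetylase that acts with Sum1p to silence middle genes, had 115, 107 and 140 CPM in GBy225-t and 190, 187 and 204 CPM in GBy222-t (log2 fold change -0.68, edgeR adjusted p = 0.057, and 0.037 with the block).

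Without replicate 3, 5 of the 17 were lower, namely *IME1*, *IME2*, *RIM4*, *HST1* and *UME6*. *UME6* encodes the URS1-binding protein and had 78.8, 71.7 and 132 CPM in GBy225-t, against 116, 143 and 139 CPM in GBy222-t. The other 11 regulators, among them *SIN3*, *RPD3*, *RIM11*, *RIM15*, *MSN2* and *SUM1*, passed in none of these fits.

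Of 7 genes for the m6A methyltransferase complex and its reader, 1 was lower and none higher, and the median log2 fold change was -0.80. *SLZ1*, which encodes a meiosis-specific subunit, had 271, 189 and 450 CPM in GBy225-t, against 885, 858 and 854 CPM in GBy222-t. All 3 GBy225-t libraries lay far below the narrow GBy222-t range (log2 fold change -1.51 ± 0.27 SE, edgeR adjusted p = 0.040).

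*IME4* mRNA itself was 108, 72.3 and 119 CPM in GBy225-t and 173, 176 and 172 CPM in GBy222-t. The sets did not overlap, but the log2 fold change of -0.80 ± 0.20 (SE) missed the threshold (edgeR adjusted p = 0.065, and 0.045 with the block). *MUM2*, another subunit, had 182, 165 and 260 CPM in GBy225-t and 390, 334 and 354 CPM in GBy222-t (log2 fold change -0.83, edgeR adjusted p = 0.057, and 0.031 with the block). *PHO92*, the reader, had 86.1, 81.9 and 224 CPM in GBy225-t, against 248, 201 and 261 CPM in GBy222-t. In GBy225-t replicate 3 it was within the GBy222-t range. *VIR1* and *KAR4* had log2 fold changes of -0.57 and -0.65 without passing. Without replicate 3, 6 of the 7 were lower, *DYN2* being the exception. *DYN2* encodes a dynein light chain that has other roles in the cell.

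Of 16 genes for meiotic recombination, 5 were lower and none higher, and all 16 log2 fold changes were negative (median -1.39). Without replicate 3, 14 were lower (median -1.78), and with the block 11 were. *DMC1*, the meiotic recombinase, had 565, 478 and 835 CPM in GBy225-t, against 1580, 1407 and 1461 CPM in GBy222-t (log2 fold change -1.24 ± 0.20 SE, edgeR adjusted p = 0.033). *MEI5*, whose product loads Dmc1p, had 40.5, 23.7 and 86.5 CPM in GBy225-t, against 226, 187 and 231 CPM in GBy222-t. It had the largest decrease of the well-counted genes that passed, -2.09 ± 0.38 (SE, edgeR adjusted p = 0.040), and the sets were far apart.

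*HOP2*, needed for homolog pairing, had 70.1, 54.4 and 117 CPM in GBy225-t and 315, 251 and 283 CPM in GBy222-t (log2 fold change -1.81). *SAE3*, the partner of *MEI5*, and *REC114*, a gene for double-strand break formation, were lower, with log2 fold changes of -1.42 and -0.77. *REC114* was as low in replicate 3 (84.1 CPM) as in replicates 1 and 2 of GBy225-t (81.0 and 89.6 CPM).

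Of 20 genes for the chromosome axis, synapsis and segregation, 4 were lower and none higher (median log2 fold change -1.30). All 20 were lower without replicate 3 (median -1.97), and 15 with the block. *HOP1*, an axis component, had 224.5, 229 and 402 CPM in GBy225-t, against 540, 641 and 701 CPM in GBy222-t (log2 fold change -1.14, edgeR adjusted p = 0.047, and 0.051 without normalization factors). *MSH5*, *SPO16* and *MLH3*, all of crossover formation, were lower, with log2 fold changes of -1.45, -1.68 and -0.92. The distance of replicate 3 from its set was plainest for *REC8*, the meiotic cohesin, with 148, 150 and 462 CPM in GBy225-t, against 756, 815 and 807 CPM in GBy222-t. Fewer cells in the meiotic programme and less of each mRNA per cell cannot be told apart in bulk RNA.

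The URS1 core GGCGGC, in either orientation, was present in the 300 bases before the start of 9 of 16 recombination genes (56.2%) and 10 of 20 axis and synapsis genes (50%). It was in 15 of the 56 promoters of genes that were lower (26.8%), 0 of the 62 promoters of genes that were higher, and 312 of all 5987 promoters searched (5.21%). Without replicate 3 it was in 81 of 534 genes that were lower (15.2%) and 16 of 548 that were higher (2.92%). Among the largest decreases of well-counted genes that passed, the core was in 4 of the 11 promoters searched (36.4%). The matches nearest to the start are shown for some of the genes named above that had one. They are written 5′ to 3′ on the strand of the gene in R64. *RIM4* and *REC8* also had a match, which is not shown. The capitals mark the core or its reverse complement GCCGCC.
MEI5, chrXVI:321742-321765, minus strand: aaagtattaGCCGCCcaaacttct
HOP2, chrVII:435487-435510, plus strand: tatgtcctcGGCGGCtaaattttc
SPO16, chrVIII:402756-402779, minus strand: tgaaaagtgGGCGGCtaaaaccga
DMC1, chrV:548274-548297, plus strand: cggaaaataGCCGCCcaaggataa
HOP1, chrIX:226422-226445, plus strand: tttaacctgGGCGGCtaaattgta
SLZ1, chrXIV:271292-271315, minus strand: atatgaataGCCGCCgaaattatg

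The core lay 82 bases before the gene in *SPO16*, 120 in *MEI5*, 123 in *HOP2*, 129 in *SLZ1*, 132 in *DMC1* and 165 in *HOP1*. In *HOP2*, *SPO16* and *HOP1* it was followed by taaa. A match is a description of letters and not a measurement of binding.

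Middle sporulation genes are those that *NDT80* turns on at the exit from prophase. Over 26 members they summed to 678, 620 and 1051 CPM in GBy225-t and 1078, 1095 and 1121 CPM in GBy222-t. None of 23 tested passed in edgeR, DESeq2 or limma (median log2 fold change -0.43), but DESeq2 gave the member *CRR1* no adjusted p. In edgeR 6 had an unadjusted p under 0.05, against 1217 of all 5880 genes. *NDT80* had 37.8, 19.2 and 30.9 CPM in GBy225-t and 42.5, 50.6 and 47.4 CPM in GBy222-t. The sets did not overlap, but the log2 fold change of -0.67 was within what edgeR allows for the spread (adjusted p = 0.19, and 0.089 without replicate 3). Without replicate 3, 8 of the 23 were lower. *CRR1* had the smallest edgeR adjusted p of the list (log2 fold change -1.26, adjusted p = 0.060). It passed in edgeR with at least 10 counts in every library (0.044), with all 18 libraries (0.0029) and without replicate 3 (0.011). *SPO20* and *MPC54*, with log2 fold changes of -0.91 and -0.48, passed without replicate 3 (edgeR adjusted p = 0.0043 and 0.017). *AMA1*, which encodes a meiotic activator of the anaphase-promoting complex, was another, with 144, 115 and 303 CPM in GBy225-t against 315, 344 and 352 CPM in GBy222-t.

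Of 40 DNA replication genes, 4 were lower and none higher, and all 40 log2 fold changes were negative (median -0.51). Without replicate 3, 19 were lower, and with the block 9 were. *RNR1*, the large subunit of ribonucleotide reductase, had 59.6, 71.1 and 150 CPM in GBy225-t, against 311, 314 and 360 CPM in GBy222-t (log2 fold change -1.82 ± 0.31 SE, edgeR adjusted p = 0.035). *POL1*, the catalytic subunit of DNA polymerase alpha, had 56.9, 67.9 and 74.8 CPM in GBy225-t and 144, 147 and 136 CPM in GBy222-t (log2 fold change -1.10, edgeR adjusted p = 0.024). *CDC7*, the kinase that fires origins, and *CDC21*, thymidylate synthase, were lower, with log2 fold changes of -1.10 and -0.91.

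For *POL1*, *CDC7* and *CDC21* replicate 3 lay close to the other GBy225-t libraries, unlike for *REC8*. The MCB element ACGCGT, which is its own reverse complement, was in the 300 bases before 22 of the 40 replication genes (55%), against 209 of 5987 promoters (3.49%). It was in 5 of 56 promoters of genes that were lower (8.93%) and 1 of 62 of those that were higher (1.61%). The match is shown for *POL1* and *CDC21*, on the strand of the gene, with the element in capitals. The position of a match was not looked up for *CDC7*.
POL1, chrXIV:429905-429928, plus strand: ataagtaaaACGCGTcgcgtgtat
CDC21, chrXV:467696-467719, minus strand: ccttaattgACGCGTttcctgaaa

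Of 10 histone genes, *HHF1* and *HHF2* for histone H4 were lower, and all 10 log2 fold changes were negative (median -0.57). *HHF2* had 147, 134 and 251 CPM in GBy225-t, against 577, 516 and 471 CPM in GBy222-t (log2 fold change -1.56 ± 0.24 SE, edgeR adjusted p = 0.025). *HTB2*, for histone H2B, had 95.2, 81.3 and 237 CPM in GBy225-t and 426, 404 and 378 CPM in GBy222-t (log2 fold change -1.55, edgeR adjusted p = 0.057, and 0.027 with the block). Without replicate 3, 8 of the 10 were lower, with a median of -0.89. Most of these histone genes come in similar pairs, and since reads with more than 1 alignment were not used, the level of each copy is uncertain.

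Of 12 cyclin and cell-cycle regulator genes, *CLB5*, the S-phase cyclin, was lower, with 55.5, 44.2 and 37.7 CPM in GBy225-t, against 93.7, 79.2 and 105 CPM in GBy222-t (fold change 0.499, edgeR adjusted p = 0.047). Replicate 3 had the lowest *CLB5* value of all. *CLB4* and *SWI4*, a mitotic cyclin and a G1 transcription factor, had log2 fold changes of -1.13 and -0.60 and did not pass. Without replicate 3, 5 of the 12 were lower, both of these among them (edgeR adjusted p = 0.037 and 0.0057).

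**Figure D3:**
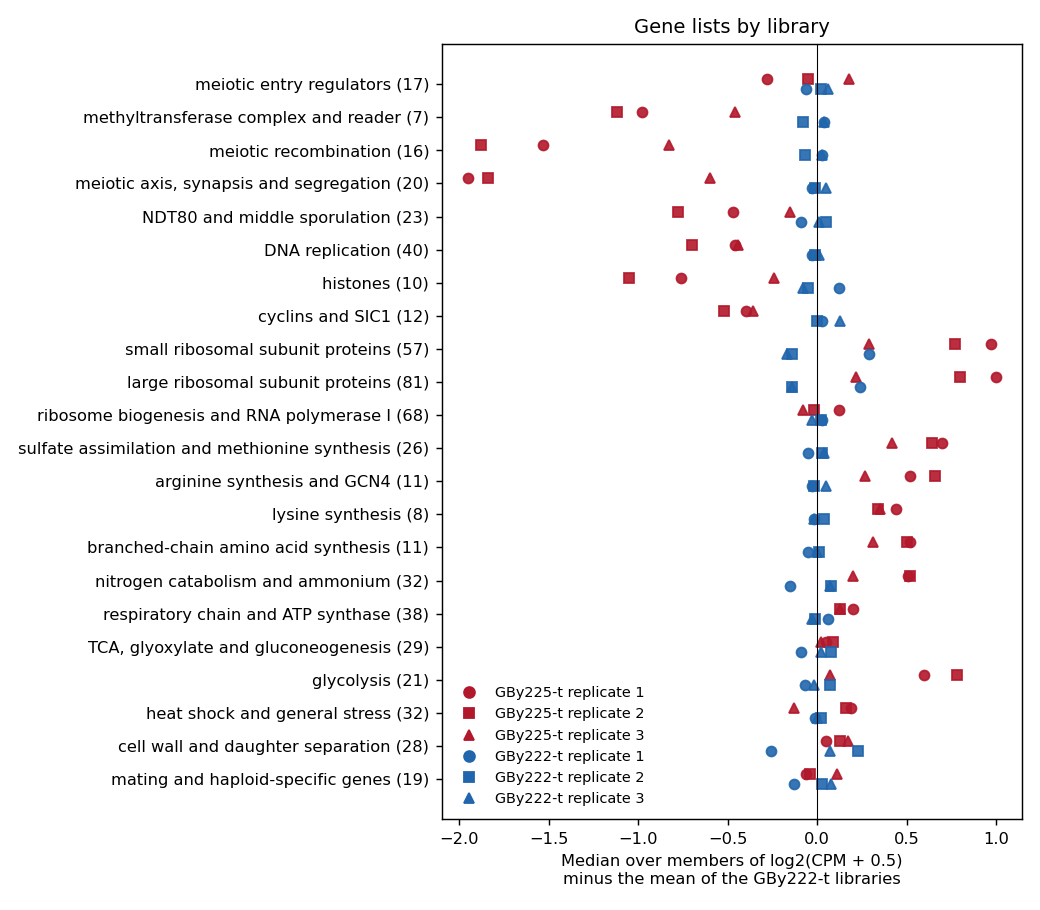
Each point is 1 library: the median over the tested members of a list (their number in parentheses) of log2(CPM + 0.5) minus the mean of the GBy222-t libraries, on a linear axis; GBy225-t is red and GBy222-t blue. GBy225-t replicates 1 and 2 sat at -1.95 and -1.84 for the axis and synapsis genes and replicate 3 at -0.60, and for large ribosomal subunit genes they sat at 1.00 and 0.80 and replicate 3 at 0.22.

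Of 57 small-subunit genes 8 were higher, and of 81 large-subunit genes 7 were higher; none was lower. The median log2 fold changes were 0.71 and 0.73, and all 57 and 80 of the 81 were positive. Without replicate 3, 52 and 72 were higher, and with the block 24 and 23. The summed level of the small-subunit genes was 9267, 8153 and 5774 CPM in GBy225-t and 5822, 4362 and 4260 CPM in GBy222-t. Replicates 1 of both sets had the highest sums of their sets, and replicate 3 of GBy225-t fell just below GBy222-t replicate 1, so the sets overlapped by the sum.

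*RPS20*, present in 1 copy in the genome, had 147, 154 and 167 CPM in GBy225-t, against 67.4, 70.2 and 71.8 CPM in GBy222-t (log2 fold change 1.15 ± 0.15 SE, edgeR adjusted p = 0.020). For this gene all libraries of a set were close together, replicate 3 included. *RPS8B*, *RPS7A* and *RPS4A* rose by 1.38, 1.20 and 1.05 on the log2 scale. In the large subunit, *RPL29* had 95.6, 75.5 and 59.96 CPM in GBy225-t and 43.9, 30.3 and 22.5 CPM in GBy222-t (log2 fold change 1.32, edgeR adjusted p = 0.049). *RPL27A*, *RPL27B*, *RPL23B* and *RPL6A* rose by 0.98, 1.12, 1.05 and 0.94. Most of these genes have a near-identical copy, and their levels are uncertain for the reason given for histones.

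Of 68 genes for ribosome biogenesis and RNA polymerase I, none passed in edgeR, DESeq2 or limma, with 4 at an unadjusted p under 0.05 in edgeR, and their median log2 fold change was 0.03, with 36 positive and 32 negative. edgeR called 2 higher and 1 lower without replicate 3. *MAK21* had 31.4, 25.6 and 24.1 CPM in GBy225-t and 35.1, 49.5 and 46.8 CPM in GBy222-t, and *ERB1* had 30.05, 27.5 and 25.96 CPM in GBy225-t against 19.0, 17.4 and 17.0 CPM in GBy222-t, but neither passed. Both encode factors for the large subunit.

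Genes for sulfur and amino acid metabolism were also among those that rose. Of 26 genes for sulfate assimilation and methionine synthesis, 7 were higher and none lower (median log2 fold change 0.59), and 18 were higher without replicate 3. Their summed level was 7460, 8072 and 6766 CPM in GBy225-t, against 4200, 4491 and 4433 CPM in GBy222-t, without overlap. *MET17*, homocysteine synthase, had 1503, 1579 and 1095 CPM in GBy225-t, against 454, 502 and 473 CPM in GBy222-t (log2 fold change 1.55 ± 0.16 SE, edgeR adjusted p = 0.018). A gene on the other strand overlaps *MET17*, and whether counting used strand is not given.

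*HOM3*, aspartate kinase at the head of the methionine and threonine pathway, had 235, 257 and 304 CPM in GBy225-t and 116, 98.9 and 92.5 CPM in GBy222-t (log2 fold change 1.38, edgeR adjusted p = 0.018). The next steps of that pathway, *HOM2* and *HOM6*, rose by 0.74 and 0.64. *SUL1*, a sulfate permease, had 618, 802 and 621 CPM in GBy225-t against 319, 332 and 341 CPM in GBy222-t. *MUP1*, the methionine permease, and *MET10*, of sulfite reductase, rose by 1.18 and 0.69 on the log2 scale.

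Of 11 genes for arginine synthesis with *GCN4*, 2 were higher and none lower (median log2 fold change 0.54), and 5 were higher without replicate 3. *ARG4*, argininosuccinate lyase, had 781, 772 and 627 CPM in GBy225-t and 395, 373 and 380 CPM in GBy222-t (log2 fold change 0.93 ± 0.14 SE, edgeR adjusted p = 0.024). *ARG7*, of the same pathway, had 153, 153 and 125 CPM in GBy225-t and 95.2, 87.1 and 86.4 CPM in GBy222-t and just missed the threshold (edgeR adjusted p = 0.057, and 0.045 with the block).

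Of 11 genes for the synthesis of branched-chain amino acids, 4 were higher and none lower (median 0.31), and 6 were higher without replicate 3. *LEU4*, the committed step of leucine synthesis, had 3129, 3845 and 2560 CPM in GBy225-t against 1456, 1582 and 1514 CPM in GBy222-t (log2 fold change 1.07, edgeR adjusted p = 0.026). *ILV2*, *ILV5* and *BAT1* rose by 1.09, 0.88 and 0.72. *LEU2* is deleted in both strains. None of 8 lysine genes passed in edgeR or limma (median 0.43), while DESeq2 called 1, and 4 had an unadjusted p under 0.05 in edgeR. The sets did not overlap for *LYS1*, with 50.1 to 76.8 CPM in GBy225-t against 35.9 to 41.6 CPM in GBy222-t, or for *LYS9*, with 101 to 127 CPM in GBy225-t against 71.8 to 74.8 CPM in GBy222-t. Without replicate 3, 3 of the 8 were higher.

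Other amino acid genes were among those that rose, and were chosen after their values were seen. *HIS4*, *TRP4*, *ARO1* and *ASN1*, of histidine, tryptophan, aromatic and asparagine synthesis, rose by 1.06, 0.95, 0.98 and 1.04 on the log2 scale.

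The Gcn4 element TGACTCA, in either orientation, was in the 300 bases before 5 of 11 arginine genes (45.5%), 6 of 12 branched-chain genes (50%), 3 of 9 lysine genes (33.3%) and 7 of 26 sulfur genes (26.9%). It was in 13 of 62 promoters of genes that were higher (21%), 1 of 56 of those that were lower (1.79%) and 157 of all 5987 (2.62%). Without replicate 3 it was in 39 of 548 that were higher (7.12%) and 11 of 534 that were lower (2.06%). The element nearest to the start is shown in capitals for genes named above, on the strand of the gene.
HOM3, chrV:258226-258250, minus strand: tcaggcccaTGACTCAccttttctt
ARG4, chrVIII:141566-141590, minus strand: gtagatgaaTGACTCActttttgga
LEU4, chrXIV:426840-426864, minus strand: acgtgtaagTGACTCAgttctttca
ILV5, chrXII:839378-839402, minus strand: gacctaactTGACTCAatggctttt

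The Cbf1 element CACGTG, its own reverse complement, was in 9 of 26 sulfur genes (34.6%), against 213 of 5987 promoters (3.56%). It was in 5 of 62 promoters of genes that were higher (8.06%) and 2 of 56 of those that were lower (3.57%).

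Of 32 genes for nitrogen catabolism and ammonium, 3 were higher and 1 lower (median log2 fold change 0.41). *GAP1*, the general amino acid permease, had 4920, 5989 and 4368 CPM in GBy225-t against 2127, 2787 and 2681 CPM in GBy222-t (log2 fold change 1.01, edgeR adjusted p = 0.035). *DUR3*, a urea transporter, and *MEP3*, an ammonium permease, rose by 1.32 and 0.89. *CAR1*, which encodes arginase, the first enzyme of arginine breakdown, went the other way. Its level was 400, 355 and 471 CPM in GBy225-t and 871, 864 and 931 CPM in GBy222-t (log2 fold change -1.12 ± 0.14 SE, edgeR adjusted p = 0.020). Without replicate 3, 13 of the 32 were higher and 1 lower.

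**Figure D4:**
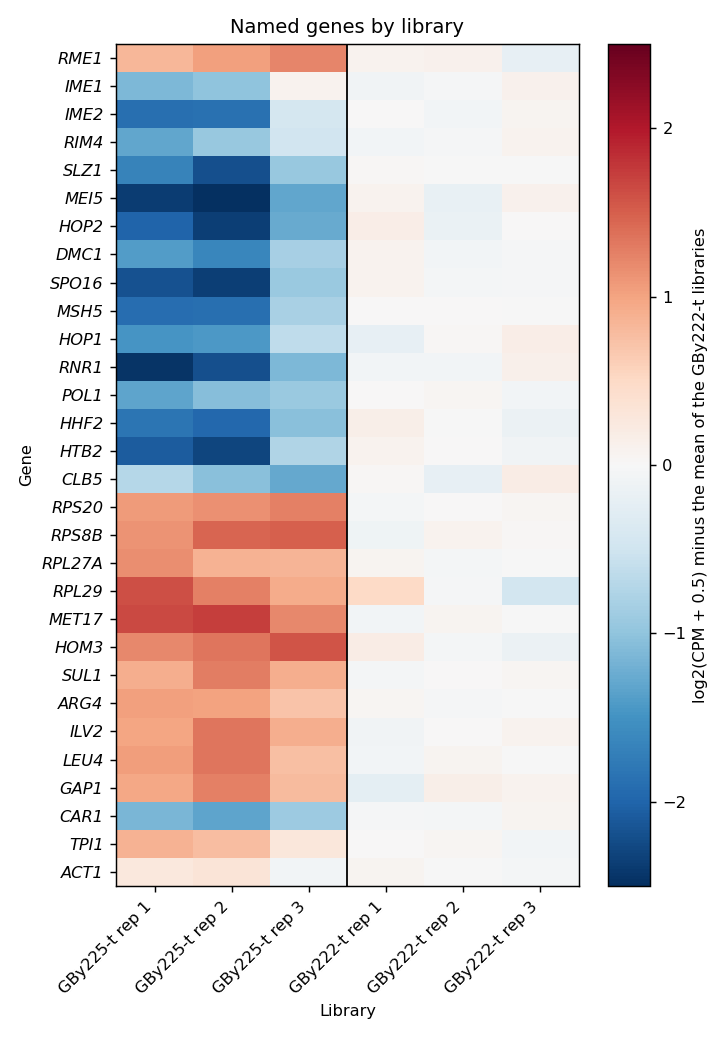
Colour gives log2(CPM + 0.5) minus the mean of the GBy222-t libraries (red above, blue below) for 30 genes named in the text, with the 3 GBy225-t libraries left of the line and the 3 GBy222-t libraries right. In GBy225-t replicate 3 *IME1* (803 CPM) lay within the GBy222-t range, while *RME1*, *RPS20*, *HOM3* and *CAR1* lay with replicates 1 and 2.

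None of 38 genes of the respiratory chain and ATP synthase passed in edgeR, DESeq2 or limma (median log2 fold change 0.23). In edgeR 5 had an unadjusted p under 0.05, and 1 was higher without replicate 3. *ATP7* had 257 to 338 CPM in GBy225-t and 210 to 223 CPM in GBy222-t, and *CYC7*, a cytochrome c, had 73.3, 71.7 and 74.8 CPM in GBy225-t against 45.4, 50.01 and 56.6 CPM in GBy222-t. Of 29 genes of the TCA and glyoxylate cycles and gluconeogenesis, 1 was higher (median 0.07), against 1.12% over all genes tested. Without replicate 3, 5 were higher and 6 lower, against 9.84% and 9.37% over all genes. *IDP2*, cytosolic isocitrate dehydrogenase, had 827, 871 and 780 CPM in GBy225-t and 497, 580 and 527 CPM in GBy222-t (log2 fold change 0.63, edgeR adjusted p = 0.048).

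*MDH1* and *ACH1*, mitochondrial malate dehydrogenase and an acetate enzyme, had log2 fold changes of -0.60 and -0.70 that passed with the block (edgeR adjusted p = 0.028 and 0.021) and not without it (0.0501 and 0.0656). Without replicate 3 both passed (edgeR adjusted p = 0.0075 and 0.013). *ICL1*, isocitrate lyase, had 613, 682 and 439 CPM in GBy225-t against 321, 375 and 374 CPM in GBy222-t, and did not pass (edgeR adjusted p = 0.071, and 0.0013 without replicate 3).

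None of 21 glycolytic genes passed in edgeR or limma (median log2 fold change 0.53), whereas DESeq2 called 10, and 12 had an unadjusted p under 0.05 in edgeR. With the block 5 were higher, and without replicate 3, 14 were. *TPI1*, triose phosphate isomerase, had 2844, 2670 and 1902 CPM in GBy225-t and 1570, 1612 and 1495 CPM in GBy222-t (log2 fold change 0.67, edgeR adjusted p = 0.065, and 0.035 with the block). *PGI1*, *TDH1* and *GPM1* had values of 0.70, 0.68 and 0.66, all passing with the block. *PGK1* and *ACT1*, genes often taken as references, had log2 fold changes of 0.36 and 0.19 and overlapping sets.

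Of 32 heat shock and stress genes 1 was higher and 1 lower (median 0.14), against 1.12% and 1.00% over all genes tested. Without replicate 3, 11 were higher and 5 lower, against 9.84% and 9.37% over all genes, and with the block 4 and 2. *TSL1*, of trehalose synthesis, had 723, 999.9 and 653 CPM in GBy225-t against 372, 445 and 390 CPM in GBy222-t (log2 fold change 0.97, edgeR adjusted p = 0.040). *HSP82*, the inducible Hsp90, had 2524, 2294 and 2929 CPM in GBy225-t against 3972, 3911 and 4274 CPM in GBy222-t (log2 fold change -0.65, edgeR adjusted p = 0.049). *CTT1* and *GPH1*, catalase and glycogen phosphorylase, had log2 fold changes of 0.46 and 0.58, which passed without replicate 3 (edgeR adjusted p = 0.011 and 0.029) and not with it.

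Of 28 cell wall genes, *CWP1*, a wall mannoprotein, was the only one higher (median 0.00), against 1.12% over all genes tested. *CWP1* had 89.2, 57.6 and 53.8 CPM in GBy225-t and 26.4, 28.1 and 25.5 CPM in GBy222-t (log2 fold change 1.33, edgeR adjusted p = 0.040). With the block 8 were higher and 1 lower, and *PST1*, *CWP2* and *WSC4*, with log2 fold changes of 0.98, 0.81 and 1.09, were among the 8. Without replicate 3, 9 were higher and 4 lower, against 9.84% and 9.37% over all genes.

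*RME1* is itself a haploid-specific gene in most strains, and these genes were set beside it. None of 19 tested passed in edgeR, DESeq2 or limma, and 0 had an unadjusted p under 0.05 in edgeR, with a median log2 fold change of -0.10, and none passed with the block or without replicate 3. Over 13 defining markers the summed level was 267 to 341 CPM in GBy225-t and 305 to 316 CPM in GBy222-t, so that the ranges overlapped. *HO* had 6.37, 5.12 and 9.89 CPM in GBy225-t and 10.3, 5.62 and 4.87 CPM in GBy222-t. No marker was at 0 in all libraries of a set.

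Of the 12 largest decreases among well-counted genes that passed, those not yet described were *SWM1*, *YDR015C*, *TOS4*, *GPP2* and *UTH1*. *TOS4*, which encodes a forkhead-domain protein of the G1/S transition, had 44.2, 37.8 and 53.8 CPM in GBy225-t against 120, 125 and 138 CPM in GBy222-t (log2 fold change -1.50 ± 0.18 SE, edgeR adjusted p = 0.018). *GPP2*, glycerol-3-phosphatase, had 31.9, 33.3 and 27.8 CPM in GBy225-t against 76.2, 88.8 and 94.3 CPM in GBy222-t. *GPP2* was as low in replicate 3 as in the other libraries of the set. *TOS4* was highest there within GBy225-t, but well below every GBy222-t library. *SWM1*, a subunit of the anaphase-promoting complex, and *UTH1* were lower, with log2 fold changes of -1.63 and -1.43.

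The 12 largest increases also held *YLR154W-F*, *YLR154W-E*, *YER067C-A*, *DPA10*, *RGI1* and *ERG3*. Whether reads from overlapping genes entered the counts of *YLR154W-F*, *YLR154W-E*, *YER067C-A* or *YDR015C* was not tested. Since the strand setting is not given, these may not be separate changes of the genes named. *DPA10* had 739, 728 and 533 CPM in GBy225-t against 240, 272 and 255 CPM in GBy222-t (log2 fold change 1.38 ± 0.16 SE, edgeR adjusted p = 0.018). *RGI1*, a gene of respiratory growth, and *ERG3*, sterol C-5 desaturase, rose by 1.34 and 1.25. *YLR154W-F* had 167, 81.9 and 124 CPM in GBy225-t against 61.5, 29.2 and 28.0 CPM in GBy222-t, with replicate 1 the highest in each set.

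Some genes that fell were named after their values were seen. *SMC1*, *SMC3* and *SCC2*, for cohesin and its loader, had log2 fold changes of -0.87, -1.03 and -1.37, and *TUB2* and *TUB3*, for beta- and alpha-tubulin, of -1.03 and -1.23. *TUB2* had 217, 250 and 354 CPM in GBy225-t against 508, 600.2 and 567 CPM in GBy222-t. *RRT5* had 3, 0 and 0 counts in GBy225-t and 10, 18 and 32 counts in GBy222-t, too few for a fold.

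These were also chosen after their values were seen. *IRC25*, a proteasome assembly gene, had 111, 72 and 0 counts in GBy225-t replicates 1, 2 and 3, and 33, 81 and 107 in GBy222-t. *MEH1* had 88.3, 67.2 and 11.7 CPM in GBy225-t against 64.4, 48.3 and 49.9 CPM in GBy222-t, and *BMS1*, of ribosome biogenesis, had 63.7, 53.8 and 9.27 CPM in GBy225-t against 73.2, 80.4 and 96.1 CPM in GBy222-t. These genes were low in this library alone, and edgeR called none of the 3. At the other end, *RNP1* had 102, 95.4 and 487 CPM in GBy225-t against 661, 541 and 593 CPM in GBy222-t, so that replicate 3 was close to GBy222-t there. Whether the preparation of this library, its cells or its label had a part in these values was not tested.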

How the data were processed

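The series' RNA-seq libraries were made from input lysate or pooled polysomes. The authors deposited raw counts per gene, 1 table a library, with 7126 genes and 5 closing rows. TopHat2 and sacCer3 are named in the submitters' processing notes. The methods state 1 hit allowed per read, and the labels and methods name different library kits. The counting program and strand setting are not given in the sources used here. The closing rows (not unique 66.8% to 88.1%, no feature 6.84% to 18.5%) stayed out of library sizes and tests. Symbols and positions came from RefSeq's R64 annotation, the same assembly, which matched 6079 genes.

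Counts were scaled by TMM, filtered by filterByExpr and tested with edgeR 4.0.16 (glmQLFit, glmQLFTest, set as the only term) in R 4.3.3, with Benjamini-Hochberg adjustment over 5880 genes; SE was the log2 fold change over the root of F. The common biological coefficient of variation was 0.203. DESeq2 1.42.0, limma 3.58.1, other scalings, filters and fits, and each library left out were alternatives. DESeq2 gave no adjusted p for some genes, *CRR1* and *CLB4* among them, and these were counted as not passing. The statistics were also run on simulated counts, drawn independently for each library. The simulation held no outlying library and no effect shared by a replicate number, so it does not cover those features of these data. Same-numbered libraries deviated together (r = 0.36, 0.259 and 0.162 over 4499 genes), which is where the pairing comes from, since the labels do not say what a number stands for. For unlike numbers r was -0.282 to 0.0873. Deviations were taken from the means of sets of 3, so these values depend on each other. No 2 libraries were alike within sampling noise: chi-square per degree of freedom was 1.58 to 22.0. Depth limits genes under about 10 counts.

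Named genes were the regulators, the methyltransferase complex, the 12 largest changes each way past the threshold, averaging 50 or more normalized counts and without overlap, and up to 4 members of each list with the smallest adjusted p; 1 gene that the rule names is not reported here, and others are said to have been chosen after their values were seen. The comparison, the lists and the rule were chosen with earlier results of these data known. The other 12 RNA-seq libraries were used only to check labels and in the fit of all 18, and 12 samples of m6A-seq were not analysed here.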

Additional observations from a re-analysis of the deposited data

How the results depend on the processing

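Every one of the 107 named genes and *RME1* kept its direction under each alternative run for it. The log2 fold change of *RME1* was 0.94 to 1.13 with 1 library left out, 0.89 with *ACT1* and 0.77 with *PGK1* as the only reference (edgeR adjusted p = 0.099 and 0.26). The 66 genes higher and 59 lower became 192 and 169 with the replicate block, which changed 18 named genes to passing and no other call among them. They were 238 and 184 with DESeq2's Wald test, 460 and 410 with all 18 libraries in the fit, and 130 and 151 at a log2 fold change beyond 0.8 with an unadjusted p under 0.01. With 1 library left out they ran from 0 to 584 and from 0 to 556. With *ACT1* as the only reference edgeR called 10 genes in all, and with *PGK1* 0, with 1134 and 994 at an unadjusted p under 0.05. Without normalization factors 39 were higher (34.5% of calls, against 52.8%), since the median gene moved to -0.09, and 12 named genes no longer passed, with adjusted p from 0.051 (*HOP1*) to 0.069 (*HOM6*). With upper quartile factors 91 were lower (42% of calls higher). limma-trend gave 91 lower, and a minimum of 10 counts in every library 100. At an adjusted p under 0.01, 0 were higher and 0 lower in edgeR, with 1217 genes at an unadjusted p under 0.05, and limma gave 0 and DESeq2 197.

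With 1 library left out, the median log2 fold change ran from -1.78 to -1.14 for recombination, -1.97 to -1.01 for axis and synapsis, -0.89 to -0.42 for histones, -0.47 to -0.24 for cyclins, -0.05 to 0.06 for ribosome biogenesis, 0.38 to 0.49 for lysine, 0.25 to 0.51 for branched-chain amino acids, 0.16 to 0.24 for respiration and -0.10 to 0.11 for mating genes. Without normalization factors it was -0.44 for cyclins, -0.06 for ribosome biogenesis, 0.35 for lysine, 0.20 for branched-chain amino acids, 0.14 for respiration and -0.02 for the TCA list. For cyclins it was also -0.57 with no filter, -0.14 with at least 10 counts in every library and -0.54 with all 18 libraries. Apart from fewer libraries or genes in a fit, the cause was not tested.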
